A study of Homo sapiens with 6 samples.

Results

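The BCL2 family decides whether mitochondria release the proteins that start apoptosis. The 10 genes described here were taken by symbol from the count table of MM.1S cells, 10 of 56637 gene symbols, and all 10 had enough counts to be tested. They comprise 3 anti-apoptotic genes (MCL1, BCL2 and BCL2L1), 2 effectors (BAX and BAK1) and 5 BH3-only genes (BCL2L11, BBC3, PMAIP1, BID and BMF). MM.1S is an established human multiple myeloma line, a cancer of plasma cells. All cells had received a lentivirus and puromycin selection. The hairpin was directed either at KDM6B, a histone demethylase that removes repressive methyl marks, in the shKDM6B group or at luciferase, a sequence foreign to human cells, in the shLuc control group. Each group had 3 libraries of total RNA. Only 1 hairpin label exists for KDM6B, so effects of losing KDM6B and other effects of that hairpin cannot be told apart.

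In the intrinsic pathway, BAX and BAK1 form pores in the outer mitochondrial membrane. MCL1, BCL2 and the BCL-xL product of BCL2L1 hold them in check. BH3-only proteins free them by binding the groove of the anti-apoptotic proteins, and some, such as BIM and BID, also activate them by direct binding. Plasma cells and many myelomas depend on MCL1 for survival, and the balance of BCL2, BCL-xL and BIM (the BCL2L11 product) bears on how myeloma cells respond to BCL2 inhibitors. Several of these proteins are controlled by splicing, cleavage or rapid turnover, which counts per gene do not show.

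The largest rise and the largest fall among the 10 genes were both in BH3-only genes. The 250 bases before the start sites of these 2 genes are shown because they are the members with the largest changes, in opposite directions. They come from RefSeq on GRCh38.p14, a later build than the one the reads were mapped to; 9 of the 10 members matched an entry there (MCL1 did not). Capitals mark matches, on either strand, to any of 6 motifs: TGACGTCA (CRE), TGANTCA (AP-1), CCGGAAG (ETS), CACGTG (E-box), TGATGNAA (ATF4 and C/EBP composite) and GGGCGG (SP1). The PMAIP1 window lies at chr18:59899746-59899995 on the plus strand and the BBC3 window at chr19:47232668-47232917 on the minus strand, and both are printed in the direction of transcription.
PMAIP1: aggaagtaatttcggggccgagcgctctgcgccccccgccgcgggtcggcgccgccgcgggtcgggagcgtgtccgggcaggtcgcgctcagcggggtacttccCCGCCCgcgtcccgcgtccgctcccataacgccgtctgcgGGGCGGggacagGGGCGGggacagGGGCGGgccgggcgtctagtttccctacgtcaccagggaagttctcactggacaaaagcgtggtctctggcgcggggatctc
BBC3: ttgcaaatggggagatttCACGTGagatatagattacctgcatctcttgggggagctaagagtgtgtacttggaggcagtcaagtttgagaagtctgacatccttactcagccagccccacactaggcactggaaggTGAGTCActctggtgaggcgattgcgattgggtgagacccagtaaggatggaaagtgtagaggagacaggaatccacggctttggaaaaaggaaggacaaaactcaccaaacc

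The PMAIP1 window is 72.8% G and C and holds 4 matches to the SP1 motif, which 45% of 35116 promoters hold in the 300 bases searched (250 before and 50 after the start). The BBC3 window is 49.2% G and C and holds 1 AP-1 match, found in 7.71% of promoters, and 1 E-box, found in 7.26%. Their first bases lie at positions -113 and -232, with the start site counted as 0. No CRE, ETS or ATF4 and C/EBP match lay in either window; these occur in 1.85%, 10.3% and 3.62% of promoters. The BCL2 window, which is also rich in G and C, held no match to any of the 6 motifs. These matches describe letters in a window and do not show binding. Which start sites MM.1S cells use was not tested, so the windows may not be the promoters in use.

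Values by library are listed throughout in the order of replicates 1, 2 and 3. Total counts ran from 7338393 to 8996159 in the control libraries and from 7952156 to 9848351 in the knockdown libraries. The targeted gene, KDM6B, counted 409, 505 and 437 reads in shLuc and 239, 270 and 348 in shKDM6B, with an edgeR log2 fold change of -0.71 (SE 0.073; adjusted p = 7.72e-08). Plasma cell markers were abundant in every library (8 genes summing to 2384 to 2715 CPM, the read count scaled to library size with TMM factors). CD38 (log2 fold change -0.45, edgeR adjusted p = 3.88e-07) and TNFRSF17 (-0.37, 2.20e-06) were lower in shKDM6B. PRDM1 was higher (0.15, 0.0173), and 5 did not pass 0.05. The share called was 37.5%, against 39.1% of all genes tested. The mature B cell markers, 3 genes with MS4A1 and PAX5 among them, summed to 0 to 2 counts. Epithelial markers, 10 genes, summed to 3.42 to 13.6 CPM in shLuc and 2.93 to 46.0 CPM in shKDM6B, highest in shKDM6B replicates 1 and 2 and, among controls, in shLuc replicate 1. The list did not move together. EPCAM went the other way (11, 12 and 20 counts in shLuc, 7, 5 and 13 in shKDM6B), and KRT15 was at 99.4% of the control level. Of the other lists, 4 T cell genes summed to 7.69 to 9.94 CPM in shLuc and 4.78 to 6.36 CPM in shKDM6B. Most of this sum was CD3E, and CD3D had 1 count in shKDM6B replicate 3 and 0 in every other library. The 2 erythroid genes summed to 19.3 to 23.6 and 10.4 to 13.02 CPM, nearly all from HBB. Monocyte and fibroblast genes reached at most 3.11 and 3.23 CPM. CD3G was at 0 in all libraries. HBA1 had 1 count in shKDM6B replicate 1 and 0 in every other library. A sum that rests on 1 gene does not show that cells of that kind were present. In bulk RNA, fewer cells of a kind and less RNA per cell cannot be told apart.

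Of the 10 members, BBC3 and BID rose, PMAIP1 and BCL2 fell, and 6 did not pass an adjusted p of 0.05. The 4 of 10 stood beside a background of 39.1% of the 13839 genes tested (20.1% higher and 18.9% lower), so the share of members called was near that of all genes. By role, 1 of 3 anti-apoptotic genes passed (lower), 0 of 2 effectors, and 3 of 5 BH3-only genes (2 higher, 1 lower). For the effectors, 1 of 2 had an unadjusted edgeR p under 0.05 and DESeq2 also called 0. The median log2 fold change of the 10 was -0.020, and over all genes tested it was -0.0053. The 3 shKDM6B values lay wholly outside the 3 shLuc values for 5 of 10 members, against 48.4% of all genes.

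**Figure D1:**
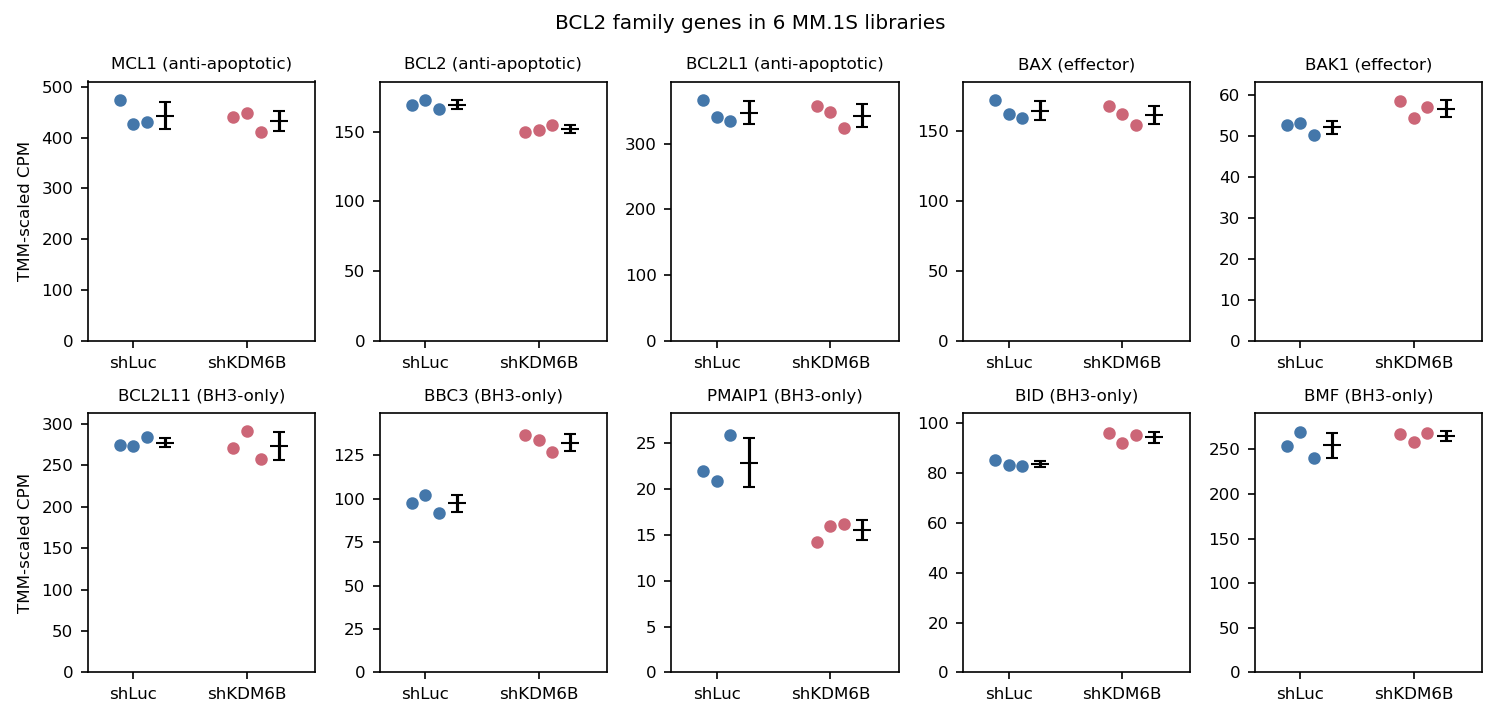
TMM-scaled CPM of each of the 10 genes (vertical axes from 0) in the 3 shLuc (blue) and 3 shKDM6B (red) libraries; the black bar is the mean with its SD. BBC3, BID and BAK1 are higher without overlap in shKDM6B, PMAIP1 and BCL2 lower without overlap, and the other 5 genes overlap.

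MCL1, the short-lived protein on which plasma cells rely, was at 474, 426 and 430.2 CPM in shLuc and at 441, 448 and 410.2 CPM in shKDM6B. The groups overlapped, and the highest value was in the shallowest shLuc library and the lowest in the deepest shKDM6B library. The log2 fold change was -0.033 (SE 0.051, adjusted p = 0.647), with a 95% interval of 0.907-fold to 1.05-fold.

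BCL2L1, whose long form BCL-xL blocks BAX and BAK1 and whose short form promotes death, stood at 366, 341 and 334 CPM in shLuc and 357, 348 and 323 CPM in shKDM6B. Here too the groups overlapped and the extremes fell in the same 2 libraries as for MCL1. Its log2 fold change was -0.018 (SE 0.050, adjusted p = 0.803; 95% interval 0.919-fold to 1.06-fold). Counts per gene do not separate the 2 forms. In GENCODE 29, 43.0% of BCL2L1 exon bases are also exon of the antisense transcript ABALON, and the library kit is not known to mark strand.

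BCL2, the founding survival gene and the target of venetoclax, was the anti-apoptotic gene that fell. Its values were 169, 173 and 166 CPM in shLuc and 150.1, 151 and 155 CPM in shKDM6B. Every shKDM6B library was below every shLuc library, and the spread within a group (SD 3.15 and 2.64 CPM, n = 3 each) was small beside the gap. The log2 fold change was -0.16 (SE 0.042, adjusted p = 0.00481), which is 89.7% of the control level. When the TMM factors were computed on thinly covered genes alone (under 0.03 counts per base) it was -0.098 (adjusted p = 0.302), and without the 3 libraries highest in keratin counts (shLuc replicate 1 and shKDM6B replicates 1 and 2) it was -0.13 (adjusted p = 0.101), so the call did not hold in those 2 settings.

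Neither effector passed. BAX, the cytosolic effector that moves to mitochondria on activation, was at 173, 163 and 159 CPM in shLuc and 168, 163 and 155 CPM in shKDM6B. The groups overlapped, and the log2 fold change was -0.027 (SE 0.046, adjusted p = 0.675; 95% interval 0.919-fold to 1.05-fold).

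BAK1, the effector that resides on mitochondria, was at 52.7, 53.3 and 50.4 CPM in shLuc and 58.5, 54.5 and 57.1 CPM in shKDM6B. All 3 shKDM6B values were above the shLuc values, yet the log2 fold change of 0.12 (SE 0.055) had an adjusted p of 0.0830. It was 0.18 (adjusted p = 0.0264) with TMM factors from thinly covered genes. A pseudogene, BAK1P1, held 24 to 38 counts per library, and reads of the parent gene may have been counted there.

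Among the BH3-only members, BBC3, which encodes PUMA, a potent binder of all anti-apoptotic members, rose most. It was at 97.8, 102 and 92.0 CPM in shLuc and at 136, 134 and 127 CPM in shKDM6B. The lowest shKDM6B library was above the highest shLuc library. The level went from 97.3 ± 5.0 to 132 ± 5.0 CPM (SD, n = 3 each), 1.36-fold higher (0.44 on the log2 scale, SE 0.048, edgeR adjusted p = 1.55e-07). The size of this change was at the 82.7th percentile of absolute log2 fold changes over all tested genes.

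PMAIP1, which encodes NOXA, a BH3-only protein that binds mainly MCL1 and promotes its degradation, fell most. The control libraries held 160, 185 and 235 reads of it and the knockdown libraries 112, 134 and 161. Scaled, these were 22.0, 20.9 and 25.9 CPM against 14.3, 16.0 and 16.3 CPM, without overlap. The log2 fold change was -0.56 (SE 0.10, adjusted p = 0.000121), 67.7% of the control level, at the 88.4th percentile of absolute changes. PMAIP1 had the fewest counts of the 10 genes, and its SE was the largest of them.

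BID, which links death receptors to mitochondria once caspase-8 has cleaved it, rose slightly. It was at 85.1, 83.2 and 82.8 CPM in shLuc and 96.1, 92.0 and 95.4 CPM in shKDM6B, without overlap (log2 fold change 0.18, SE 0.045, adjusted p = 0.00333, 1.13-fold). By the DESeq2 Wald test its adjusted p was 0.0570.

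BCL2L11, which encodes BIM, the activator most abundant in many lymphoid cells, was at 274, 274 and 284 CPM in shLuc and 271, 291 and 258 CPM in shKDM6B. The shKDM6B libraries lay on both sides of the shLuc values (log2 fold change -0.022, SE 0.048, adjusted p = 0.750; 95% interval 0.919-fold to 1.06-fold). Of its exon bases in GENCODE 29, 10.9% are shared with the antisense transcript MIR4435-2HG.

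BMF, a BH3-only protein that can be held on the actin and myosin cytoskeleton, was at 254, 269 and 240.3 CPM in shLuc and 268, 258 and 268 CPM in shKDM6B. The groups overlapped (log2 fold change 0.056, SE 0.047, adjusted p = 0.375; 95% interval 0.971-fold to 1.11-fold), and 8.46% of its exon bases overlap BMF-AS1.

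**Figure D2:**
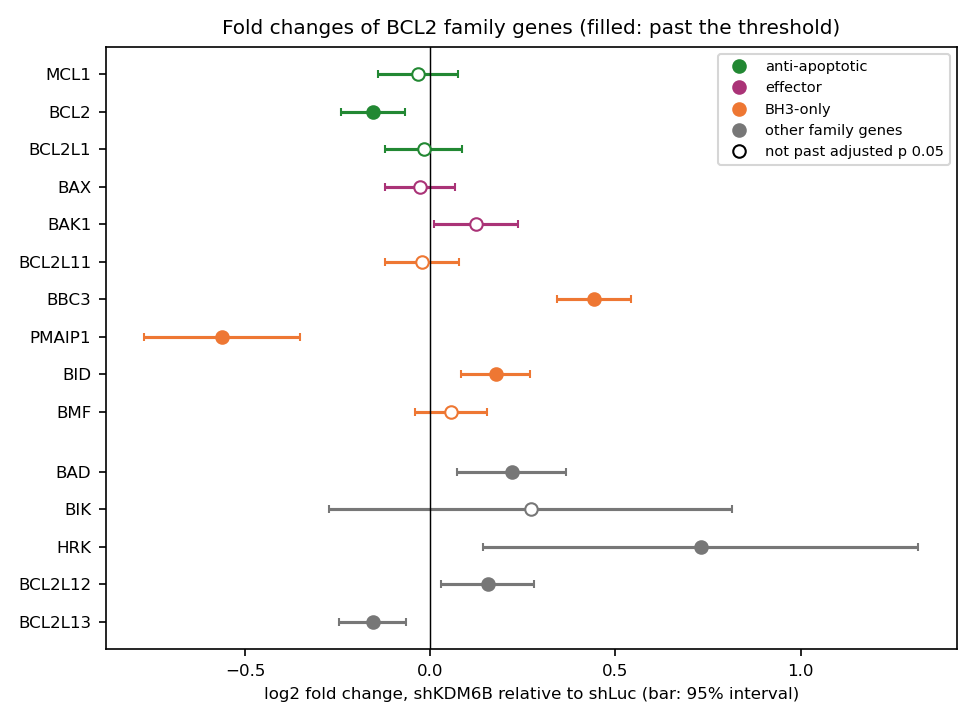
Log2 fold changes of the 10 members, coloured by role, and of 5 other BCL2 family genes (grey) with 95% intervals; filled points passed an adjusted p of 0.05. BBC3 (0.44) and PMAIP1 (-0.56) lie farthest from 0 among the members, and HRK has the widest interval of all.

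The calls of BBC3, PMAIP1, BID and BCL2 held when any 1 of the 6 libraries was left out, with adjusted p values of at most 7.42e-06, 0.00101, 0.0186 and 0.0335. BBC3 and PMAIP1 also passed under all 17 alternatives, where their log2 fold changes ran from 0.39 to 0.50 and from -0.63 to -0.46. BID passed in 16 of 17 and BCL2 in 15 of 17. MCL1, BCL2L1, BAX, BCL2L11 and BMF passed in 0 of 17, by edgeR, DESeq2, limma-voom or limma-trend, and for these 5 genes 0 had an unadjusted edgeR p under 0.05 with all libraries. Without the 3 libraries highest in keratin counts, which leaves 1 shKDM6B library whose spread is assumed to equal that of the controls, BBC3 was at 0.39, PMAIP1 at -0.53 and BID at 0.20 on the log2 scale, and all 3 passed.

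**Figure D3:**
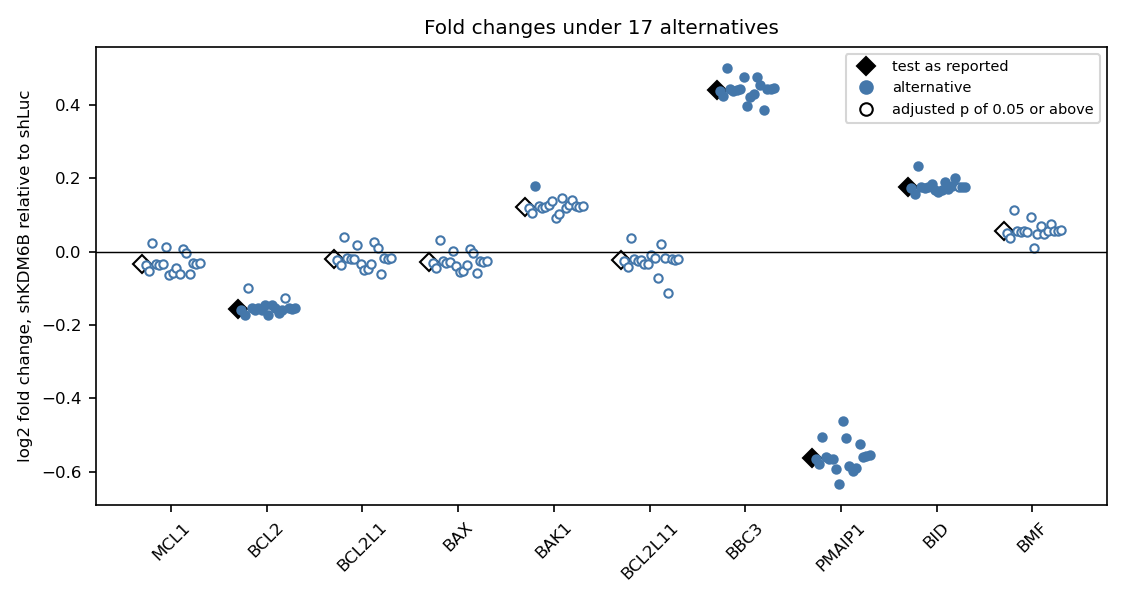
Log2 fold change of each member in the test as reported (diamonds) and under 17 alternatives (circles: other scalings, filters, tests, a replicate block, a depth covariate and libraries left out); open symbols have an adjusted p of 0.05 or above. BBC3 and PMAIP1 stay filled throughout, BCL2 is open in 2 settings and BID in 1, and BAK1 is filled in 1.

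Levels can be compared between genes only per length. Per kb of exon (the union of all exons in GENCODE 29, which overstates length where long isoforms are unused), the order in shLuc ran from BCL2L1 at 105 ± 5 and MCL1 at 101 ± 6 CPM per kb down through BAX (63.7 ± 2.7), BMF (46.7 ± 2.6) and BCL2L11 (41.7 ± 0.9). BBC3 (30.6 ± 1.6), BAK1 (23.6 ± 0.7), BID (18.8 ± 0.3), BCL2 (14.4 ± 0.3) and PMAIP1 (10.3 ± 1.2; SD, n = 3 for each) followed. BCL2L1 and MCL1 did not differ beyond their spread. In shKDM6B the order was the same except that BBC3, at 41.6 ± 1.6 CPM per kb, stood beside BCL2L11 at 41.1 ± 2.5, with overlapping spreads. PMAIP1 stayed lowest, at 6.94 ± 0.49 CPM per kb.

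**Figure D4:**
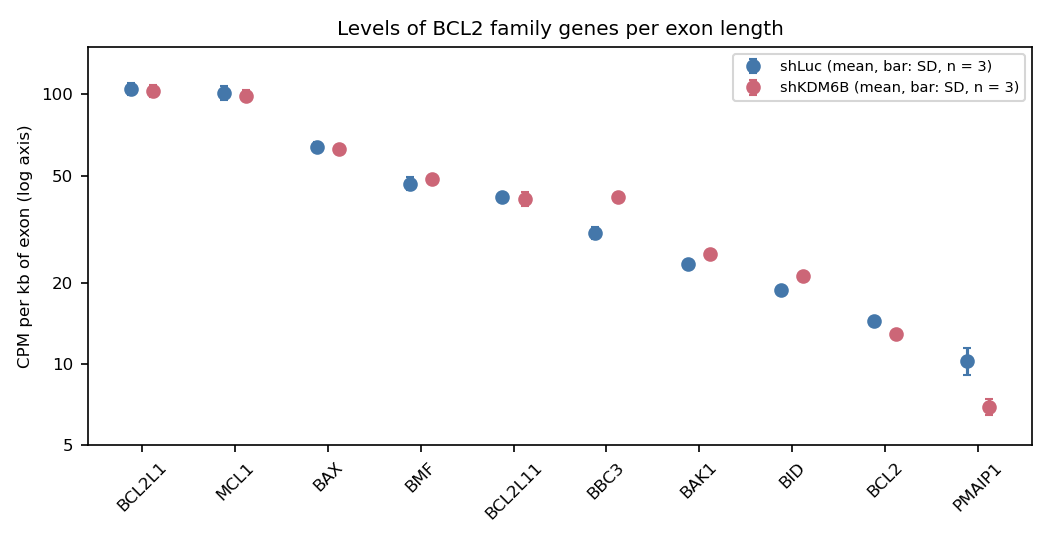
Mean CPM per kb of exon (log axis) of the 10 members in shLuc (blue) and shKDM6B (red), ordered by the shLuc level; bars are SDs over 3 libraries. BCL2L1 and MCL1 lead at about the same level, and BBC3 reaches the BCL2L11 level in shKDM6B.

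Summed by role, the 5 BH3-only genes were at 148, 151 and 146 CPM per kb in shLuc and 161, 161 and 156 in shKDM6B, so that the groups did not overlap. The 3 anti-apoptotic genes summed to 233, 215 and 213 CPM per kb against 221, 220.3 and 204, and the 2 effectors to 90.6, 87.0 and 84.3 against 91.4, 87.5 and 85.6, both with overlap. The BH3-only sum holds genes that moved in opposite directions, and most of its level came from BMF, BCL2L11 and BBC3. The largest change within it was that of BBC3, from 30.6 to 41.6 CPM per kb. BID went from 18.8 to 21.3, BMF from 46.7 to 48.5, BCL2L11 from 41.7 to 41.1 and PMAIP1 from 10.3 to 6.94.

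Ratios of raw counts within a library do not depend on scaling. For each of 5 pairs of a survival and a death gene the 2 groups were compared by an exact two-sided permutation test, in which 3 against 3 libraries cannot give a p under 0.1. MCL1 counts were 21.6, 20.4 and 16.6 times those of PMAIP1 in shLuc and 31.0, 27.96 and 25.2 times in shKDM6B. This ratio was higher in every shKDM6B library (difference 0.53 on the log2 scale, 1.44-fold; exact permutation p = 0.1, adjusted p = 0.25 over the 5 ratios).

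BCL2 counts were 1.73, 1.69 and 1.81 times those of BBC3 in shLuc and 1.10, 1.13 and 1.22 times in shKDM6B. That ratio was lower in every shKDM6B library, by 0.60 on the log2 scale (log2 difference -0.60; exact permutation p = 0.1, adjusted p = 0.25). For this ratio and for MCL1 to PMAIP1, the permutation p was the smallest that 3 against 3 libraries can give. The test could not reach 0.05 whatever the values, so it cannot decide on either difference. BCL2 to BCL2L11 went from 0.617, 0.631 and 0.586 to 0.553, 0.519 and 0.602, with overlap (log2 difference -0.13, exact permutation p = 0.2, adjusted p = 0.333), and without shKDM6B replicate 2 the difference was -0.083.

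BCL2L1 to BAX overlapped between groups, at 2.12, 2.10 and 2.10 in shLuc and 2.13, 2.14 and 2.09 in shKDM6B (log2 difference 0.0088, exact permutation p = 0.6, adjusted p = 0.75). MCL1 to BCL2L11 was 1.73, 1.56 and 1.51 against 1.63, 1.54 and 1.59 (log2 difference -0.011, exact permutation p = 0.9, adjusted p = 0.9); its sign turned to 0.046 without shLuc replicate 1 and to 0.010 without shKDM6B replicate 2.

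**Figure D5:**
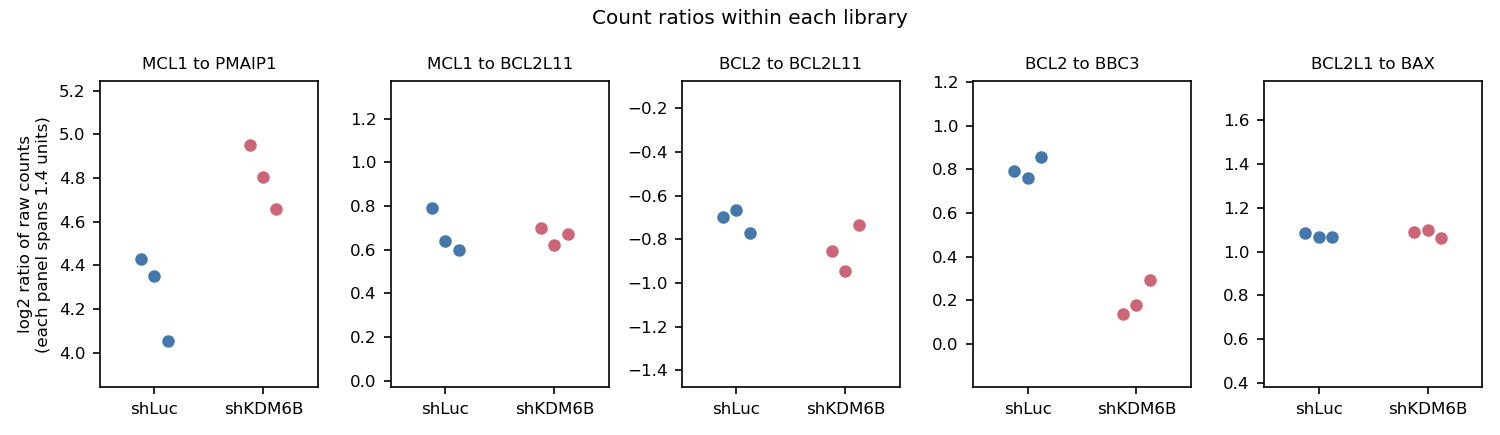
Log2 ratio of raw counts of a survival gene to a death gene in each library, with the same 1.4-unit span in every panel. MCL1 to PMAIP1 is higher and BCL2 to BBC3 lower in all 3 shKDM6B libraries, and the other 3 ratios overlap between groups.

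The densest members were BCL2L1, MCL1 and BAX, with 0.887, 0.854 and 0.538 counts per base of exon on average, whereas PMAIP1 had 0.0736. For those 3 genes the CPM was highest in the shallowest shLuc library and lowest in the deepest shKDM6B library. Outside the members, SDC1 (1.17 counts per base) and the less dense CYCS (0.230) had the same extremes. MYC (1.09) and IRF4 (0.816) did not, and both were highest in shKDM6B replicate 1. Whether this pattern follows density was not tested. With the log2 library total as a covariate, the log2 fold changes were -0.0046 for MCL1, 0.0093 for BCL2L1 and -0.0043 for BAX.

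Of the 10 other family genes listed, 5 were tested: 3 rose, 1 fell and 1 (BIK) did not pass, with a median log2 fold change of 0.22. Over all genes tested, 39.1% passed. BAD, a BH3-only protein controlled by phosphorylation, rose between shLuc at 30.3 ± 0.7 and shKDM6B at 35.4 ± 2.0 CPM (SD over 3 libraries), which is 0.22 on the log2 scale (SE 0.071, edgeR adjusted p = 0.0170). HRK, another BH3-only gene, had 12, 14 and 11 counts in shLuc and 16, 18 and 30 in shKDM6B (0.73, SE 0.28, adjusted p = 0.0456). BCL2L12 rose (0.15, SE 0.061, adjusted p = 0.0475) and the mitochondrial membrane protein gene BCL2L13 fell (-0.16, SE 0.043, adjusted p = 0.00628). With TMM factors from thinly covered genes BCL2L13 was at -0.099 (adjusted p = 0.277), which left 3 higher and 0 lower, and without the 3 libraries highest in keratin counts its adjusted p was 0.0880.

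Leaving out single libraries ended 3 of these 4 calls. BAD lost its call without shLuc replicate 3, shKDM6B replicate 1 or shKDM6B replicate 2 (adjusted p from 0.0559 to 0.0690), as did BCL2L12 (0.103 to 0.321), whose log2 fold change was 0.082 without shLuc replicate 3. Without the 3 libraries highest in keratin counts BAD was at 0.13 (adjusted p = 0.424) and HRK at 1.11. HRK lost it without any single library other than shKDM6B replicate 1 (0.0586 to 0.248). DESeq2 called 0 of the 5, with 1 at an unadjusted p under 0.05. BAD and BCL2L12 share 23.7% and 33.1% of their exon bases with GPR137 and IRF3 on the other strand. Not tested were BCL2L2, BCL2A1, BCL2L10, BOK and BCL2L14, which had 0 to 9 counts per library. BCL2L2 shares 24.3% of its exon bases with other genes, among them the read-through gene BCL2L2-PABPN1, and how reads in shared exons were counted is not known.

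A downstream list of 18 mitochondrial pathway genes was tested in full: 5 rose, 1 fell and 12 did not pass, with a median of 0.060. Besides genes of cytochrome c release and caspase activation, it holds mitochondrial channel and dynamics genes, DNM1L among them. The share called, 33.3%, was below the 39.1% of all genes tested. BIRC3, an inhibitor of apoptosis and NF-kB target, rose by 0.57 on the log2 scale (SE 0.049, edgeR adjusted p = 4.67e-09), with 74.7 ± 4.3 CPM in shLuc and 111 ± 4 CPM in shKDM6B (SD over 3 libraries). HTRA2, a protease released from mitochondria that inactivates inhibitors of apoptosis, rose from 54.8 ± 2.7 to 66.0 ± 1.1 CPM (0.27, SE 0.053, adjusted p = 0.000306). It shares 36.9% of its exon bases with AUP1 and LOXL3.

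Smaller rises were seen in the caspase inhibitor XIAP (0.16) and the mitochondrial fission gene DNM1L (0.14), and BIRC2, a relative of BIRC3, fell (-0.16). XIAP did not pass once shLuc replicate 1 (adjusted p = 0.0705) or shKDM6B replicate 2 (0.160, log2 fold change 0.11) was left out. DNM1L lost it on removing shKDM6B replicate 2 or either of shLuc replicates 1 and 2 (0.0750 to 0.110), and BIRC2 without shLuc replicate 3 or shKDM6B replicate 1 (0.0996 and 0.0695). With TMM factors from thinly covered genes 7 were higher and 0 lower, and BIRC2 was at -0.099 (adjusted p = 0.241). The count of 6 fell to 3 without shLuc replicate 1 and without shKDM6B replicate 2, and DESeq2 called 2.

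Among 26 genes known to act on transcription or turnover of BCL2 family members, 7 rose, 3 fell and 16 did not pass, with a median of 0.019. The share called, 38.5%, was near the 39.1% of all genes tested. With TMM factors from thinly covered genes 7 were higher and 2 lower, with upper-quartile scaling 6 and 5. CEBPB, a stress-responsive transcription factor, stood at 32.4 ± 0.6 CPM in shLuc and 52.0 ± 3.2 CPM in shKDM6B (SD over 3 libraries), a rise of 0.69 on the log2 scale (SE 0.064, edgeR adjusted p = 1.84e-08), and the NF-kB subunit NFKB1 rose (0.40, SE 0.043, adjusted p = 1.13e-07). MAPK8, the JNK1 kinase that phosphorylates several BH3-only proteins, rose from 38.7 ± 1.2 to 50.7 ± 3.4 CPM (SD, n = 3 each; 0.38, SE 0.063, adjusted p = 4.48e-05). FOXO1, of the forkhead family that can induce BCL2L11, BBC3 and PMAIP1, was higher on average (0.33, SE 0.089, adjusted p = 0.00463) with overlapping groups. Its mean was 30.4 CPM in shLuc. The more abundant FOXO3, at 376 CPM in shLuc and 367 CPM in shKDM6B, did not pass (-0.036, SE 0.050, edgeR adjusted p = 0.605).

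ELK1, a transcription factor of the ETS family activated by phosphorylation, fell from 97.1 ± 4.4 to 67.8 ± 2.1 CPM (SD over 3 libraries; -0.52 on the log2 scale, SE 0.049, edgeR adjusted p = 1.85e-08).

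The genes most like PMAIP1 across the 6 libraries, out of 11217 others with a mean of at least 5 CPM, were PKIA, SYNM and ZNF215. Likeness was the root-mean-square distance of log2 CPM, each gene centred on its own mean. PKIA, a protein kinase A inhibitor gene, was at 36.0, 33.8 and 41.0 CPM in shLuc and 22.3, 26.3 and 25.6 CPM in shKDM6B, a distance of 0.028. SYNM, an intermediate filament gene, lay at a distance of 0.031 and had a log2 fold change of -0.59, and the zinc finger gene ZNF215 lay at 0.037 with -0.52. Each shared with PMAIP1 its highest value in shLuc replicate 3 and its lowest in shKDM6B replicate 1. These genes were picked for likeness over the same 6 libraries, so shared extremes and similar fold changes follow from that choice. They are not evidence of joint regulation.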

How the data were processed

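The authors deposited raw counts per gene symbol for each library and a table of normalized values. The tools named in the submitters' processing notes are STAR, featureCounts and DESeq, and the build is GRCh37 (hg19). Versions, annotation, strand setting and any removal of duplicates are not given there. The deposited normalized values, a linear signal, equalled the counts divided by 1 factor per library (largest relative difference 5.03e-10 over 56609 matched symbols). In each count file 1 line that holds a name and no count was left out.

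The comparison used edgeR 4.0.16 under R 4.3.3, fitted to the counts (filterByExpr, TMM, glmQLFit and glmQLFTest on all 6 libraries), with Benjamini-Hochberg adjustment over all 13839 genes tested and a threshold of 0.05. The SE and 95% interval of a log2 fold change follow from the quasi-likelihood statistic. Adjusted p values in the results are edgeR's where no tool is named. Alternatives used DESeq2 1.42.0, limma 3.58.1 (voom, and trend on log2 of the deposited values plus 1), other scalings and filters, a replicate block, the log2 library total as a covariate, and libraries left out. Of these scalings, 1 took TMM from 3205 genes with under 0.03 counts per base. Exon lengths came from GENCODE 29 on GRCh38 for 86.9% of tested genes, and no coordinates were converted.

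On simulated counts for this comparison (13674 genes, few of them changed) the recovery was 62.5% of 48 genes at 1.2-fold and 76% of 50 genes at 1.5-fold. Of 172 calls, 12 were unchanged genes. The data gave 5405 calls, a far larger share, so these recovery rates may not apply to them. Folds under 1.2 were not simulated. The labels do not say that cultures were separate, so the p-values reflect library-to-library spread only, possibly technical. The members, lists and alternatives were chosen with earlier results of these data known. The genes named were all 10 members, KDM6B and the 3 genes most like the member with the largest change. Of each other list, the rule was to name up to 6 called genes with the smallest p and its untested genes. BIK, CYCS, MYC, IRF4, FOXO3 and single marker genes were named after their values were seen. Some genes that this rule names are not reported here.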

Additional observations from a re-analysis of the deposited data

How the results depend on the processing

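The count of 4 members past the threshold was 4 in every leave-one-out fit and 3 or 4 under the other alternatives; TMM factors from thinly covered genes kept 4 but with 3 higher and 1 lower, BAK1 passing and BCL2 not. Under that scaling 64.5% of all calls were higher, against 51.5%, and the median log2 fold change over all genes was 0.053. The median of the 10 members was then 0.039, and with the library total as a covariate it was 0.0025. With the replicate block, 6218 genes passed in place of 5405, and the block changed no call among the members. Same-numbered libraries deviated together in pairs 1 and 3 but not in pair 2 (correlations 0.25, -0.082 and 0.21 over 11218 genes). Library totals rose from replicate 1 to replicate 3 in both groups, so shared deviations and depth cannot be told apart. Deviations were taken from group means of 3 libraries, so the correlations are not independent and cannot decide on pairing. The numbers were not taken as pairs. DESeq2 called 3421 genes in all.

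The 4 calls among other family genes became 2 with upper-quartile scaling, 2 with no filter on low counts, 1 without the keratin libraries, 0 with DESeq2 (1 at an unadjusted p under 0.05), 1 at an adjusted p of 0.01, and 1 to 3 with a library left out. The 6 downstream calls became 2 without the keratin libraries, 2 with DESeq2, 2 at an adjusted p of 0.01, 3 to 6 with a library left out, and 7 with TMM factors from thinly covered genes. The 10 regulator calls became 8 to 10 with a library left out, 14 with the replicate block, 7 with DESeq2 and 7 at an adjusted p of 0.01. Genes with low counts, such as HRK, limit what could be detected.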
